A study of Mus musculus with 6 samples.

Results

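The transcription factors that drive epithelial-mesenchymal transition (EMT), together with vimentin, the filament protein most often used to mark it, were followed in mouse Lewis lung carcinoma (LLC) cells given a microRNA mimic. The 9 genes were taken by symbol: Snai1, Snai2, Twist1, Twist2, Zeb1, Zeb2, Prrx1, Tcf4 and Vim, out of 24794 genes in the count table and 24494 in the FPKM table. Of the 6 libraries, 3 are from cells transfected with miR-291-3 mimics and 3 from cells transfected with a mimics control. LLC is a widely used mouse line of a spontaneous lung tumour, which grows when transplanted into mice of its strain. All 6 libraries are polyadenylated RNA of this single line, and the labels name no further treatment, dose or time. Whether replicate libraries are separate cultures is not stated, so p-values measure the spread between libraries, which may be technical.

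EMT is the programme by which epithelial cells lose their junctions and keratin-based shape and take on a motile, mesenchymal one. The SNAIL zinc-finger factors, the TWIST basic helix-loop-helix factors and the ZEB zinc-finger homeobox factors bind E-box motifs and repress junction genes such as E-cadherin, while mesenchymal genes come on. Carcinoma cells use the same programme in invasion, and microRNAs, above all the miR-200 family acting on Zeb1 and Zeb2, hold it in check.

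A microRNA finds its targets mainly through its seed, which pairs with matching bases in the 3' untranslated region (UTR) of a messenger RNA. The mature sequence and the matches in the genes described here are shown because the series' design text names miR-291a-3p. The sample titles say miR-291-3 only and the mimic's own sequence is not given, so the matches were classed for miR-291a-3p. Its relative miR-291b-3p has a seed that differs only at base 8 in RefSeq. Matches that do not use base 8 hold for both, and the class of a site can differ between them. The miR-291a-3p sequence lies at chr7:3218968-3218989 on the plus strand of GRCm38.p6 (RefSeq) in the miR-290 cluster of embryonic stem cells. Its seed, bases 2 to 8, is in capitals.
mmu-miR-291a-3p: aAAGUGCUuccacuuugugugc
Annotated 3' UTRs (GENCODE M21, build GRCm38) were searched on the transcript strand for AGCACTTA (8mer), AGCACTT (7mer-m8), GCACTTA (7mer-A1) and GCACTT (6mer), which nest within each other, so that the longest match was taken at each position. Vim held an 8mer at bases 168 to 175 of its longest 3' UTR of 342 bases (chr2:13582651-13582658, plus strand). The match is in capitals in each site.
Vim 8mer: gaaagaagctcAGCACTTAacaactgacac
Prrx1 held a 6mer at bases 3208 to 3213 of its longest 3' UTR of 4891 bases (chr1:163254544-163254549, minus strand). In the transcript whose coding sequence is longest, and whose 3' UTR differs, it held a 7mer-m8 at bases 1649 to 1655 (chr1:163246603-163246609, minus strand).
Prrx1 6mer: gaggaagcaatGCACTTcttaaaaaaaa
Prrx1 7mer-m8: ctggtttgtccAGCACTTtgtagccgtga
Zeb1 held a 7mer-A1 at bases 2358 to 2364 of 2401, near the end of its 3' UTR. Tcf4 held 6mers in its longest 3' UTR of 6007 bases and no match in that of the longest coding sequence. Snai1, Snai2, Twist1, Twist2 and Zeb2 held no match with either choice of transcript.

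Against all genes, matches of 7 or 8 bases were not rare. Of 11652 tested genes with an annotated 3' UTR, 21.9% held one, and 2 of the 9 genes did, Vim and Zeb1 (3 in the transcripts of longest coding sequence, with Prrx1 added, against 18.6% of all genes). An 8mer such as that of Vim was held by 3.7% of genes. The median log2 change, mimic minus control, was -0.13 over genes with an 8mer, -0.06 over those with a 7mer-m8, -0.05 with a 7mer-A1, -0.02 with a 6mer and 0.02 with none. A match describes these letters only, and pairing in the cells was not measured.

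Libraries held 25376993 to 32963986 counts, and 13779 genes passed the filter on low counts. The first principal component took up 54.9% of the variance between libraries. In edgeR's quasi-likelihood test, at a Benjamini-Hochberg adjusted p under 0.05, 3349 genes rose (24.3%) and 3423 fell (24.8%) in mimic libraries. With scaling to total counts only, the split was 2341 risen and 4444 fallen. Replicates were tight, with a biological coefficient of variation of 2.02%. Of the 7 markers listed for lung epithelium, 3 (Sftpb, Epcam and Cdh1) were analysed here, and 0 reached a mean of 1 CPM, with sums of 0.0351 to 0.181 CPM in mimic and 0.0332 to 0.208 CPM in control libraries. E-cadherin, Cdh1, the classical target of these repressors, averaged 0.0732 CPM in mimic and 0.0837 CPM in control libraries, too low to test, and Cdh2 was not analysed here. The 3 endothelial markers analysed here (Pecam1, Cdh5 and Tek) also stayed under 1 CPM. The leukocyte markers Ptprc, Adgre1 and Itgam had 0 counts in the mimic libraries and means of at most 0.0905 CPM in control libraries. The LLC cells of both groups thus had the transcripts of the EMT factors with these epithelial markers at or near 0. Not every epithelial gene was low: the keratin Krt8 averaged 552 CPM in mimic and 493 CPM in control libraries. Fewer cells of a kind and less RNA per cell cannot be told apart in such bulk libraries.

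None of the 9 genes was near zero. Every mean was above 1 CPM (counts scaled to library size, with TMM factors), and the lowest count of any of them was 456, for Zeb2 in mimic library 1. In mimic libraries 6 of the 9 fell (Prrx1, Zeb1, Twist1, Tcf4, Snai2 and Vim), 0 rose and 3 were not called (Twist2, Zeb2 and Snai1), against a background of 24.8% fallen among all tested genes. For 5 of the 9, all 3 mimic libraries were below all 3 control libraries, which held for 27.9% of all tested genes. The falls were small. The median log2 change of the 9 was -0.14, against -0.01 over all tested genes and -0.29 over all fallen genes, and the largest fall, of Prrx1, was by 18.2%.

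**Figure D1:**
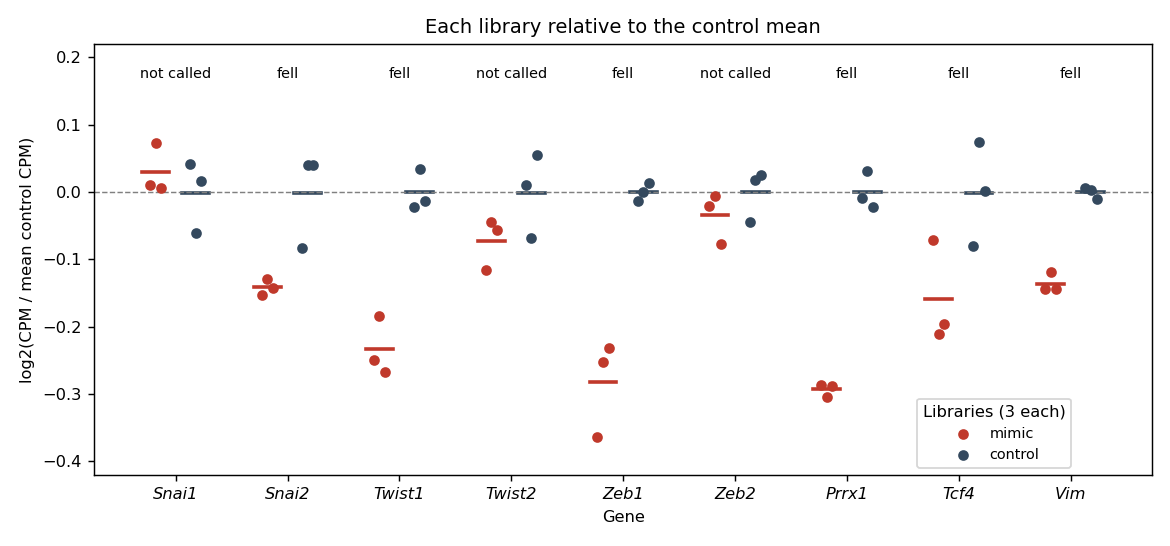
Each point is a library's CPM relative to the control mean of that gene on a log2 scale, mimic left and control right for each gene, with lines at the group means (3 libraries each) and edgeR's call above. Prrx1, Zeb1 and Twist1 stand lowest, the mimic and control points of Snai1, Zeb2, Twist2 and Tcf4 overlap, and the points of Vim are tight in both groups.

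Among the SNAIL factors, Snai2 fell and Snai1 was not called. Snai2 (Slug, which represses E-cadherin and is expressed in neural crest cells) had 40.4, 41.1 and 40.7 CPM in mimic libraries, against 42.4, 46.2 and 46.2 CPM in control libraries. The groups did not overlap, although control library 1 lay close above the highest mimic library. Snai2 averaged 40.8 ± 0.387 CPM in mimic and 44.9 ± 2.22 CPM in control libraries (SD, n = 3 each), for a log2 change of -0.14 ± 0.04 (SE, edgeR adjusted p = 0.00455). Snai1 (Snail, the family member whose protein is turned over within minutes in many cells) had 27.1, 28.3 and 27.0 CPM in mimic libraries, against 27.7, 25.8 and 27.2 CPM in control libraries. The ranges overlapped. Its log2 change was 0.03 ± 0.05 (SE, edgeR adjusted p = 0.643), an interval of 2 SE from -0.07 to 0.13, and with total counts only it was -0.03.

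Twist1 fell, and its close relative Twist2 was not called. Twist1, a basic helix-loop-helix factor of cranial mesoderm that drives metastasis in mouse mammary tumours, had 51.5, 53.9 and 50.9 CPM in mimic libraries, against 60.3, 62.7 and 60.7 CPM in control libraries. Every mimic library lay below every control library. The means were 52.1 ± 1.57 CPM in mimic and 61.2 ± 1.27 CPM in control libraries (SD, n = 3 each), for a log2 change of -0.23 ± 0.04 (SE, edgeR adjusted p = 1.87e-06). Twist2, known for holding back the maturation of bone and skin mesenchyme, had 68.6, 72.1 and 71.5 CPM in mimic libraries, against 74.9, 70.9 and 77.2 CPM in control libraries. Control library 2 lay inside the range of the mimic libraries. The log2 change was -0.07 ± 0.03 (SE, edgeR adjusted p = 0.081), with an interval of 2 SE from -0.14 to -0.00. Over 14 alternatives its adjusted p ran between 0.00218 and 0.366. Without control library 2 the call changed, to a fall of 0.10 on the log2 scale (edgeR adjusted p = 0.0182), and with total counts only Twist2 fell by 0.13 (edgeR adjusted p = 0.00218). A gene model on the opposite strand of Twist2, Gm29100, had 134, 180 and 166 counts in mimic and 185, 168 and 221 counts in control libraries. The strand setting of the counting is not given, so reads of that pair cannot be told apart with certainty.

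Of the ZEB factors, Zeb1 fell and Zeb2 was not called. Zeb1, which with Zeb2 forms a mutual repression loop with the miR-200 family, had 26.2, 28.3 and 28.7 CPM in mimic libraries, against 33.4, 33.7 and 34.0 CPM in control libraries. The groups did not overlap, and mimic library 1 was the lowest of the 6. The means were 27.7 ± 1.31 CPM in mimic and 33.7 ± 0.31 CPM in control libraries (SD, n = 3 each), for a log2 change of -0.28 ± 0.05 (SE, edgeR adjusted p = 6.72e-06), a fall by 17.7%. Zeb2 (Sip1, a SMAD-binding factor needed in neural crest and several blood lineages) had 18.3, 18.5 and 17.6 CPM in mimic libraries, against 18.0, 18.8 and 18.9 CPM in control libraries. These ranges overlapped, and the log2 change was -0.04 ± 0.06 (SE, edgeR adjusted p = 0.652), with an interval of 2 SE from -0.15 to 0.08. The antisense gene Zeb2os had 9, 10 and 12 counts in mimic and 13, 11 and 17 counts in control libraries, and was not called.

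Of the other factors, Prrx1 had the largest fall of the 9, close to that of Zeb1, and Tcf4 a smaller, less even one. Prrx1 is a paired-related homeobox factor of limb and craniofacial mesenchyme and of fibroblasts, and induces EMT. It had 89.1, 88.0 and 89.0 CPM in mimic libraries, against 108, 111 and 107 CPM in control libraries. The gap between the groups was wide beside the spread within them. The means were 88.7 ± 0.582 CPM in mimic and 108 ± 2.11 CPM in control libraries (SD, n = 3 each), for a log2 change of -0.29 ± 0.03 (SE, edgeR adjusted p = 3.31e-10). Still, 16.5% of all tested genes had a lower log2 change than Prrx1. Tcf4 encodes E2-2, an E protein that pairs with tissue-specific basic helix-loop-helix factors (it is not the WNT effector of the same nickname, Tcf7l2). It had 64.0, 58.1 and 58.7 CPM in mimic libraries, against 63.6, 70.8 and 67.3 CPM in control libraries. Mimic library 1 lay above control library 1, so the groups overlapped. The log2 change was -0.16 ± 0.04 (SE, edgeR adjusted p = 0.00115), but with limma on the FPKM values the call was lost (-0.13, adjusted p = 0.0581, with a pseudocount of 1; 3.62e-05 to 0.0627 over 14 alternatives).

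Vim, the type III intermediate filament of mesenchymal cells, was by far the most abundant of the 9 and fell by 8.98%. It had 1867, 1899 and 1866 CPM in mimic libraries, against 2072, 2067 and 2049 CPM in control libraries. The coefficient of variation was 1.01% in mimic and 0.591% in control libraries, so that this small difference stood clear of the spread. The means were 1877 ± 19.0 CPM in mimic and 2063 ± 12.2 CPM in control libraries (SD, n = 3 each), for a log2 change of -0.14 ± 0.02 (SE, edgeR adjusted p = 3.33e-08). Vim took 0.184% of all counts in mimic and 0.21% in control libraries. In rank of the change it was unremarkable, since 31.1% of tested genes had a lower log2 change.

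Levels of different genes can be set side by side only per length. On the FPKM scale (fragments scaled to gene length and depth) the order of the means was the same in both groups: Vim, Twist1, Twist2, Snai2, Snai1, Prrx1, Zeb1, Tcf4 and Zeb2. Vim was at 343 ± 7.03 FPKM in mimic and 386 ± 3.46 FPKM in control libraries, place 117 of 13779 tested genes by mean FPKM. The TWIST and SNAIL genes formed a middle tier. Twist1 was at 27.7 ± 1.13 FPKM in mimic and 33.4 ± 0.831 FPKM in control libraries (place 1511), and Snai1 at 14.7 ± 0.51 FPKM in mimic and 14.7 ± 0.499 FPKM in control libraries (place 2998). Twist2 and Snai2 lay between these, with neighbouring ranges that overlapped in control libraries only (19.9 to 21.5 FPKM for Twist2 and 18.6 to 20.4 FPKM for Snai2). Prrx1 was at 6.94 ± 0.0436 FPKM in mimic and 8.7 ± 0.206 FPKM in control libraries. Zeb1, Tcf4 and Zeb2 made up the low tier. Zeb2 was lowest, at 0.777 ± 0.0252 FPKM in mimic and 0.817 ± 0.0231 FPKM in control libraries, place 10843. The 8 factors together summed to 89.8, 94.0 and 89.6 FPKM in mimic libraries, against 102, 104 and 104 FPKM in control libraries, and Twist1 alone made up 30.4 ± 0.455% of that sum in mimic and 32.3 ± 0.686% in control libraries (SD, n = 3 each).

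The low tier depends on how length was counted. The lengths implied by the deposited FPKM values were 1.14 to 1.16 times the union of all annotated exons for each of the 9 genes. That union is 6.45 times the length of the transcript of longest coding sequence for Tcf4, 3.73 times for Zeb2 and 2.24 times for Prrx1. For Snai1, Snai2 and Twist1 it is the same length. Which transcript the cells expressed was not measured. Per kilobase of the transcript of longest coding sequence, a scale added after the data were seen, Tcf4 averaged 14.2 CPM in mimic and 15.8 CPM in control libraries, above Zeb1 at 4.78 CPM in mimic and 5.81 CPM in control libraries. Prrx1, at 17.9 CPM in mimic and 21.9 CPM in control libraries, then stood above Snai1, at 17.0 CPM in mimic and 16.6 CPM in control libraries. Vim and the TWIST genes stayed on top and Zeb2 lowest on both scales.

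**Figure D2:**
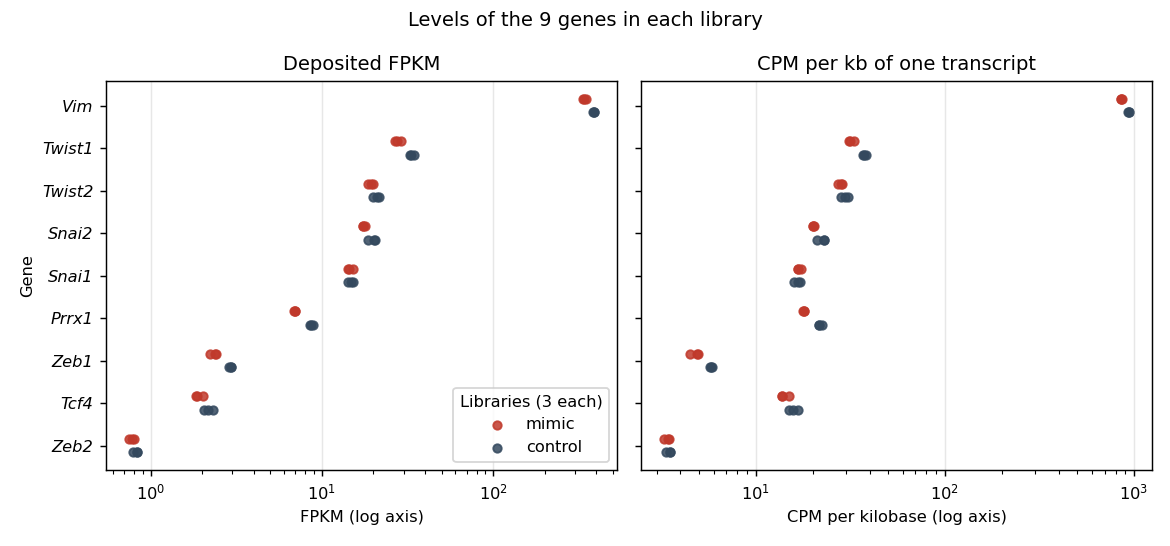
Levels of the 9 genes in each library on log axes, as deposited FPKM (left) and as CPM per kilobase of the transcript of longest coding sequence (right), with mimic points above control points for each gene. Vim lies more than a factor of 10 above the factors on both scales, and Tcf4 and Prrx1 move up on the right-hand scale.

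Within each pair of relatives, the ratio of levels did not overlap between the groups in any of the 3 families. The ratio of Snai2 to Snai1 FPKM was 1.19, 1.17 and 1.21 in mimic libraries, against 1.23, 1.44 and 1.36 in control libraries. That of Twist2 to Twist1 was 0.684, 0.688 and 0.721 in mimic libraries, against 0.638, 0.582 and 0.653 in control libraries. That of Zeb2 to Zeb1 was 0.381, 0.359 and 0.341 in mimic libraries, against 0.299, 0.307 and 0.307 in control libraries. The ratio with Snai1 was lower in every mimic library, and those with Twist1 and Zeb1 were higher in every mimic library. Each of these ratios follows from the changes of its genes given above and is no separate result. Other gene pairs were not examined, so nothing here marks these ratios off from those of other pairs. The ratio of Vim to the sum of Krt8 and Krt18, the keratin pair of simple epithelia, was 1.39, 1.38 and 1.40 in mimic libraries, against 1.70, 1.72 and 1.73 in control libraries, the widest separation relative to spread of the 4 ratios. The size of a ratio depends on the length scale: per kilobase of the transcript of longest coding sequence, Vim to the keratins averaged 3.01 in mimic and 3.71 in control libraries, and Zeb2 to Zeb1 0.712 in mimic and 0.598 in control libraries. The differences in mean log2 ratio were -0.17, 0.16, 0.24 and -0.30 in that order, with a two-sided exact permutation p = 0.1 for each (0.1 adjusted over the 4 ratios), which is the smallest p that 3 libraries against 3 can give. The ratio with the keratins combines the fall of Vim with a rise of Krt8, at 244 ± 6.57 FPKM in mimic and 223 ± 3.64 FPKM in control libraries. Krt18 was far lower, at 2.2 ± 0.381 FPKM in mimic and 1.21 ± 0.222 FPKM in control libraries. A pseudogene, Krt8-ps, had at most 13 counts in any library.

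**Figure D3:**
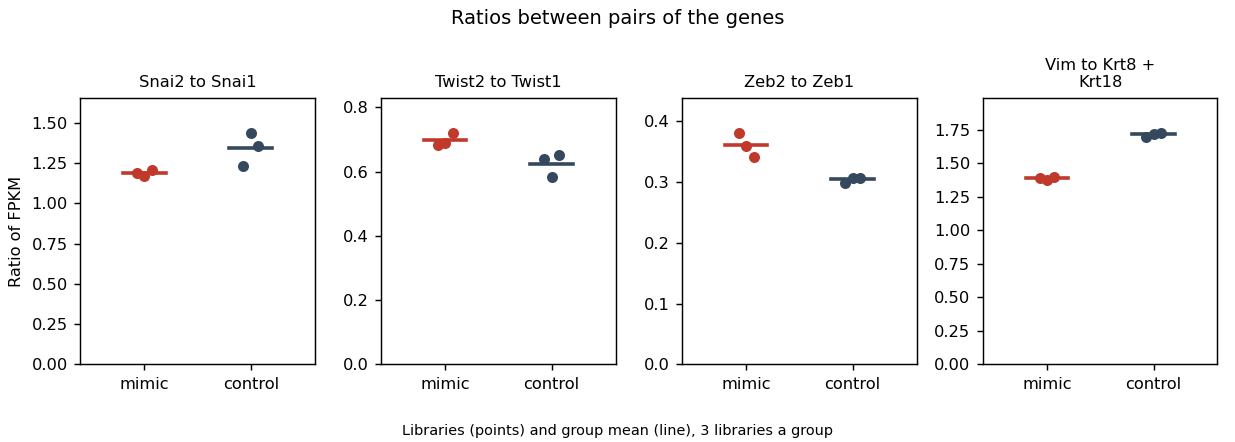
Ratio of FPKM (0.1 added to both) within each pair, mimic left and control right, with a point for each library and a line at the mean of 3. The mimic points of Snai2 to Snai1 and of Vim to the keratins lie below the control points, and those of Twist2 to Twist1 and Zeb2 to Zeb1 lie above them.

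Other factors known to promote EMT moved in both directions, some more strongly than the 9. Of 15 listed, 8 could be tested: 3 rose, 3 fell and 2 were not called, with a median log2 change of -0.07. Over all tested genes, 24.3% rose and 24.8% fell, the background for this list and those below. Hmga2, an architectural chromatin factor that induces Snai1 and Twist1 downstream of TGF-beta, rose to 369 ± 8.11 CPM in mimic libraries, against 251 ± 3.43 CPM in control libraries (SD, n = 3 each), for a log2 change of 0.56 ± 0.02 (SE, edgeR adjusted p = 2.48e-19). Fosl1, the AP-1 subunit FRA1, rose by 0.31 and Zfp281, a zinc-finger factor, by 0.39 on the log2 scale. Named after their values were seen, Foxc1 (-0.54), a forkhead factor, was among the fallen, as was Prrx2 (-0.65, at 0.824 CPM in mimic and 1.29 CPM in control libraries), the relative of Prrx1. With Prrx1 and Prrx2, both paired-related homeobox genes were lower in mimic libraries, Prrx2 at the edge of detection, where its call was lost without mimic library 2, mimic library 3 or control library 1 and in the DESeq2 Wald test (log2 change -0.88 to -0.22 over the alternatives).

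TWIST factors and Tcf4 act as dimers with E proteins, which Id proteins sequester. Of these E proteins and Id inhibitors, 5 of 6 were tested, beside 24.3% risen and 24.8% fallen over all tested genes. Of the 5, 1 rose, 2 fell and 2 were not called, with a median of 0.04 (0 rose and 2 fell with total counts only). Tcf12 (HEB), an E protein like Tcf4, fell to 117 ± 4.56 CPM in mimic libraries, against 135 ± 3.21 CPM in control libraries (log2 change -0.21 ± 0.03, SE, edgeR adjusted p = 2.03e-07). Tcf3 (E2A) rose by 0.06 (edgeR adjusted p = 0.0436) and Id3 fell by 0.16 (edgeR adjusted p = 0.0479). Neither call was firm: that of Tcf3 was lost under 11 of 14 alternatives, among them each library left out except mimic library 2, and that of Id3 under 7, among them mimic library 1, mimic library 2 and control library 3 left out (log2 change -0.24 to -0.02).

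The corepressors through which SNAIL, ZEB and TWIST silence genes were tested for 17 of 18 listed, beside 24.3% risen and 24.8% fallen over all tested genes. Of the 17, 6 rose, 2 fell and 9 were not called, with a median of 0.05. With total counts only, 1 rose and 4 fell. Prmt5, an arginine methyltransferase recruited by Snail, rose by 0.26 ± 0.02 on the log2 scale (SE, edgeR adjusted p = 2.15e-10). Of the polycomb subunits, Ezh2, the H3K27 methyltransferase, fell by 0.13, while Suz12 rose by 0.11. Named after their values were seen, Eed also rose, by 0.13, and Bmi1 by 0.08. With total counts only, the rises of Suz12, Eed and Bmi1 were not called. Mta1, of the NuRD complex, fell by 0.11.

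Because Snail, Twist and Zeb proteins are short-lived, their kinases, ligases and stabilisers bear on protein levels that RNA does not show. All 18 listed could be tested: 7 rose, 4 fell and 7 were not called, with a median of -0.01 (6 rose and 6 fell with total counts only). Over all tested genes, 24.3% rose and 24.8% fell. Lats2, the Hippo kinase that can stabilise Snail, fell to 18.6 ± 0.293 CPM in mimic libraries, against 27.4 ± 1.38 CPM in control libraries (log2 change -0.57 ± 0.05, SE, edgeR adjusted p = 2.74e-10). Siah2, a ubiquitin ligase, rose by 0.31. Cops2, a COP9 signalosome subunit, rose by 0.24 and Csnk1a1, casein kinase 1 alpha, by 0.18. Named after their values were seen, the Snail ligase gene Btrc rose by 0.30 and Fbxw7 by 0.31. The other F-box ligase genes listed did not rise: Fbxl5 fell by 0.13, and Fbxw11, Fbxl14, Fbxo11 and Fbxo45 were not called. The RNA of Snai1 itself was not called.

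Among upstream inducers of the programme, 19 of 20 were tested, beside 24.3% risen and 24.8% fallen over all tested genes. Of the 19, 6 rose, 6 fell and 7 were not called, with a median of 0.01 (3 rose and 7 fell with total counts only). The largest change was in Tgfbr2, the type II receptor of TGF-beta, which fell to 16.2 ± 0.955 CPM in mimic libraries, against 33.4 ± 1.25 CPM in control libraries (SD, n = 3 each), for a log2 change of -1.04 ± 0.05 (SE, edgeR adjusted p = 3.76e-16). This fall was larger than that of any of the 9 genes. Wwtr1 (TAZ), the Hippo effector, fell by 0.24. Hif1a, the hypoxia factor that can induce Twist1, rose by 0.17, and Stat3, a cytokine effector, by 0.30.

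The epithelial genes that these factors repress were mostly too low to test. Of 26 listed, 10 could be tested: 7 rose, 2 fell and 1 was not called, while 24.3% of all tested genes rose and 24.8% fell. The median log2 change was 0.53, against -0.01 over all tested genes. The counts were the same with total counts only, and 5 to 7 rose and 2 fell with each library left out. Named after their values were seen, the risen Esrp2 and Llgl2 were low, at 1.46 CPM each in mimic and 0.924 and 0.817 CPM in control libraries. Pkp2, a desmosomal plakophilin, rose to 51.0 ± 1.06 CPM in mimic libraries, against 32.7 ± 1.42 CPM in control libraries (log2 change 0.64 ± 0.04, SE, edgeR adjusted p = 4.07e-14). Tjp1 (ZO-1), a tight junction scaffold, rose to 123 ± 1.48 CPM in mimic libraries, against 91.3 ± 3.1 CPM in control libraries. Jup (plakoglobin), a junction protein, had 3.36 ± 0.373 CPM in mimic and 0.624 ± 0.155 CPM in control libraries, a log2 change of 2.44 ± 0.21 (SE, edgeR adjusted p = 2.42e-11). The keratins Krt8 (0.16 ± 0.02) and Krt18 (0.90 ± 0.16) rose. Named after their values were seen, the fallen genes were Ocln (-0.48), a tight junction protein, and Pkp3 (-0.26), a plakophilin. Cdh1 stayed near zero in both groups. Of the epithelial transcription factors, 4 of 11 were tested, and Ovol1, a zinc-finger factor that opposes Zeb1, rose to 1.44 ± 0.326 CPM in mimic libraries, against 0.759 ± 0.18 CPM in control libraries (log2 change 0.90, edgeR adjusted p = 0.00312), while 0 fell and 3 were not called, with a median of 0.14.

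Mesenchymal genes moved in both directions, as did all tested genes, of which 24.3% rose and 24.8% fell. Of 28 mesenchymal genes listed, 21 could be tested: 10 rose, 6 fell and 5 were not called, with a median of 0.14 (8 rose and 7 fell with total counts only). The 10 include Acta2, smooth muscle actin, named after its values were seen, which had 10, 10 and 17 counts in mimic and 3, 0 and 5 counts in control libraries. It passed the filter on low counts through the mimic libraries alone, so its call is not independent of that filter and carries no weight. Fn1, fibronectin, fell to 64.1 ± 2.1 CPM in mimic libraries, against 114 ± 4.88 CPM in control libraries (log2 change -0.83 ± 0.03, SE, edgeR adjusted p = 7.11e-19). Col3a1, a fibrillar collagen, fell by 0.37 and S100a4, a calcium-binding protein used as a fibroblast marker, by 0.73. Sparc, a matrix glycoprotein, went the other way, to 591 ± 6.85 CPM in mimic libraries, against 395 ± 4.42 CPM in control libraries (log2 change 0.58 ± 0.02, SE, edgeR adjusted p = 6.6e-21). Summed fibroblast markers overlapped between the groups, at 55.3 to 59.0 CPM in mimic and 54.1 to 59.8 CPM in control libraries, but single markers moved in both directions. Pdgfra, a platelet-derived growth factor receptor, fell by 0.58 on the log2 scale (edgeR adjusted p = 2.86e-10). Its relative Pdgfrb rose by 0.32 (edgeR adjusted p = 1.68e-06) and Lum, the matrix proteoglycan lumican, by 1.29 (edgeR adjusted p = 2.01e-05).

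Intermediate filaments and their linkers, a list that holds Vim, were tested for 14 of 20, beside 24.3% risen and 24.8% fallen over all tested genes. Of the 14, 6 rose, 3 fell and 5 were not called, with a median of 0.01 (6 rose and 5 fell with total counts only). The keratins rose while Vim fell. Plec (plectin), which ties vimentin and keratin filaments to junctions and actin, rose to 365 ± 6.3 CPM in mimic libraries, against 293 ± 5.56 CPM in control libraries (log2 change 0.32 ± 0.02, SE, edgeR adjusted p = 1.08e-13). Of the antisense transcripts and microRNA host genes listed, 1 of 11 could be tested, Zeb2os, and it was not called.

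**Figure D4:**
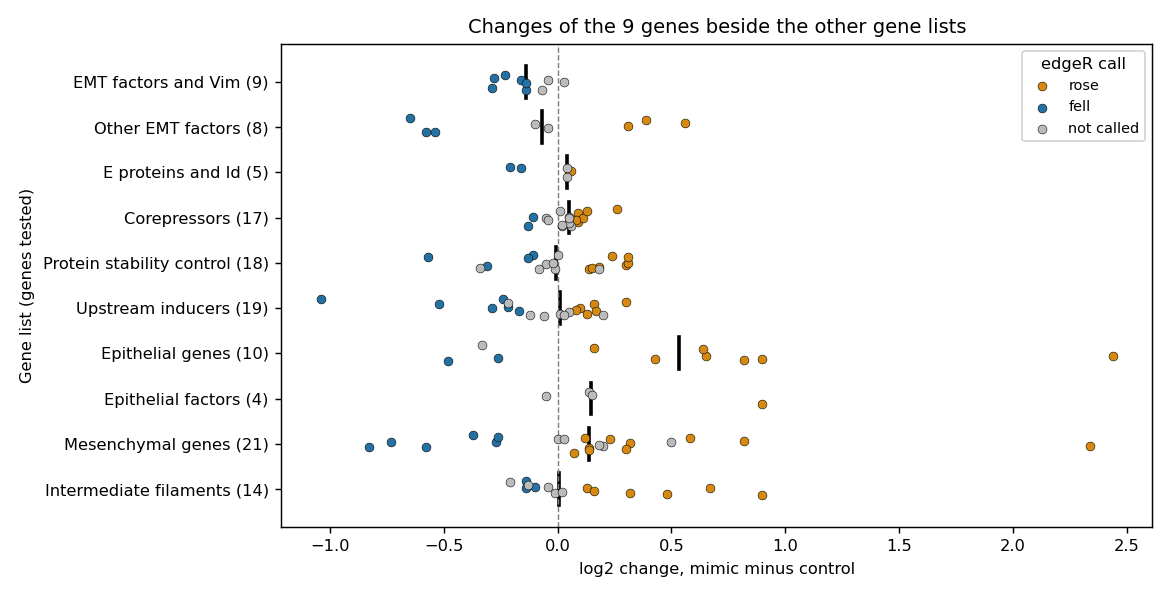
Log2 change, mimic minus control, of each tested gene in the 9-gene set and the gene lists, coloured by edgeR's call. Bars are medians, parentheses hold the number tested, and the list of antisense and microRNA host genes is not drawn. The 9 genes cluster between -0.29 and 0.03, the lists of other EMT factors and mesenchymal genes spread to both sides, and the epithelial genes have the highest median, 0.53.

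Markers of proliferation and of myeloid cells also differed between the groups, and their part in the changes of the 9 genes was not tested. The proliferation markers Mki67, Top2a and Ccnb1 were all above 1 CPM and summed to 957 to 987 CPM in mimic and 1116 to 1137 CPM in control libraries. Mki67 fell by 0.38 and Top2a by 0.25 on the log2 scale, and Ccnb1 was not called (0.01). Of 7 macrophage and leukocyte markers, 4 reached 1 CPM, and the sum was 10.8 to 11.8 CPM in mimic and 17.4 to 19.8 CPM in control libraries. Cd14 and Lyz2 fell by 0.61 and 0.99 on the log2 scale. Csf1r, at 0.918 ± 0.148 CPM in mimic and 1.3 ± 0.232 CPM in control libraries (SD, n = 3 each), was lower in every mimic library but not called (edgeR adjusted p = 0.0846), and Cd68, at 1.46 ± 0.295 CPM in mimic and 1.68 ± 0.407 CPM in control libraries, was not called. Ptprc, Adgre1 and Itgam were at or near 0.

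The genes whose pattern over the 6 libraries was most like that of each called member were found by the root mean square difference of centred log2 CPM among 8520 named genes that averaged 10 CPM or more. For Vim they were Sipa1l1 (0.0074), Uxs1 (0.0082) and Hspb8 (0.0094). For Prrx1 they were Ctsb (0.0109), Dpp8 (0.0145) and Mlkl (0.0153), and for Zeb1 Acsl4 (0.0114), Ugp2 (0.0143) and Zfp637 (0.0148). Likeness was closest for Vim and loosest for Tcf4. Those of Twist1 were Slc35b3, Osbpl2 and Zfta (0.0153 to 0.0166), those of Snai2 included Trib1 (0.0142) and Ect2 (0.017), and those of Tcf4 were Trib2, Txnrd2 and Celf4 (0.0244 to 0.0272). All of these except Celf4 (edgeR adjusted p = 0.0503) were called as fallen, which follows from picking them for likeness to fallen genes in the same libraries. No other member was a candidate, and none of the factors listed above was among these neighbours.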

How the data were processed

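Per the labels' protocols, messenger RNA was taken up on capture beads and made into directional libraries, which were read from both ends. HISAT2, DESeq2 and the build GRCm39 are named, without versions, per the submitters' processing notes. How reads were counted, with which strand setting and on which annotation, is not given in the sources used here. Of the 2 tables, the authors deposited one of whole-number read counts and one of FPKM values rounded to 2 decimals. Of the value columns, 0 had no sample. Hyphens were put back in 482 symbols written with _.

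The quasi-likelihood test of edgeR 4.0.16 was run on the counts in R 4.3.3 (filterByExpr, TMM, glmQLFit, glmQLFTest, group only, all 6 libraries), adjusted by Benjamini-Hochberg over 13779 genes and called under 0.05. The steps were also run on simulated counts with 200 changed genes. That is far fewer than were called here, so calls in data changed this widely are not tested by it. At most 0.071% of a library's counts lay outside the tested genes, and libraries of a group differed by more than sampling noise (mean chi-square per gene 1.86 to 2.22). CPM uses TMM-scaled library sizes. Ratios used FPKM + 0.1 and exact permutation tests (scipy 1.17.1, Python 3.11.15). Seed matches used the mature sequence of RefSeq (GRCm38.p6) and the 3' UTRs of GENCODE M21 (GRCm38), matched by gene ID without version. Alternatives were the DESeq2 1.42.0 Wald test, its size factors within edgeR, total counts only, a filter of 2 CPM in 3 libraries or none, limma 3.58.1 on log2(FPKM + 1) and log2(FPKM + 0.1), a block for the replicate number, and leaving out each library.

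The 9 genes, the lists and the marker genes were chosen with earlier results of these data known. Named genes are the 9, up to 4 called genes of each list with the smallest adjusted p, Krt8, Krt18, Cdh1, Cdh2, Fn1, and the 3 nearest in pattern to each called member. Of the genes this rule takes, 2 are not reported here. Marker genes are named as a check of cell type.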

Additional observations from a re-analysis of the deposited data

How the results depend on the processing

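Of the 9 genes, 0 rose under each of the 14 alternatives, and 6 fell except with total counts only and without control replicate 2, where 7 did. Twist2 then joined the called genes (-0.13 with total counts only and -0.10 without control replicate 2), and also with limma (-0.10 with a pseudocount of 1, -0.11 with 0.1), where Tcf4 dropped out (-0.13 and -0.18, adjusted p = 0.0581 and 0.0627). The cause was not tested. Over the replicates left out in turn, the log2 change ranged from -0.30 to -0.27 for Prrx1, -0.30 to -0.24 for Zeb1, -0.25 to -0.21 for Twist1, -0.20 to -0.12 for Tcf4, -0.18 to -0.12 for Snai2, -0.14 to -0.13 for Vim, -0.10 to -0.04 for Twist2, -0.06 to -0.01 for Zeb2 and 0.00 to 0.05 for Snai1. Over all genes, 2977 to 3142 fell and 3029 to 3249 rose. The median of all genes was -0.064 with total counts only.

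Whether the replicate numbers pair the libraries is not settled. Deviations of same-numbered libraries correlated weakly, at 0.02, 0.075 and 0.055, and each library was closest to its own number. Libraries of different numbers correlated at -0.063 to 0.012. With the replicate number as a block, 6 of the 9 genes fell, 0 rose and no call among them changed, with 3403 risen and 3484 fallen over all genes. All 4 ratios kept their direction with no pseudocount and with each library left out.

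Of 59 other genes followed over the alternatives, 5 lost their call under some alternative (among them Tcf3, Id3, Prrx2 and Suz12) and 0 of the called changes turned round. Some genes named above are not among the 59. Depth limits Prrx2, Jup, Krt18, Ovol1, Esrp2 and Llgl2, which rest on few counts.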
